A study of Mus musculus with 5 samples.

Results

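The Htra3 and Acox3 locus was taken as the stretch of mouse chromosome 5 from 35850000 to 36120000 (build mm9, as are all peak positions given), and every estrogen receptor α (ERα) peak that overlapped it was a member. It held 6 of the 5184 peaks called in the uterus after vehicle and 23 of the 17240 called after estradiol, or 29 of 22424 peaks in all. The region was chosen by its dense run of estradiol peaks, so the number and closeness of the peaks below are a description, and no test was made on them. The 2 peak lists come from chromatin immunoprecipitation and sequencing (ChIP-seq) of ERα in whole uterus of wild-type C57BL/6J mice. In both groups the ovaries were removed 10 to 14 days before an injection into the abdomen, which was saline vehicle in one group and 250 ng of estradiol per mouse in the other, and tissue was taken 1 hour after it. Each condition is 1 library, with no replicate, and the sources used here give neither the number of mice behind it nor their age. The tissue is a mixture of epithelium, stroma, muscle and other cells, so a site bound in more cells and a site bound more strongly per cell cannot be told apart, and peak lists give no marker expression by which to check the tissue.

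ERα is a nuclear receptor that estradiol activates. It binds DNA directly at estrogen response elements, which are inverted repeats of a short arm, and it can also be held at chromatin through other factors such as AP-1 and Sp1. Many of its sites in the genome lie far from gene starts, in introns or between genes. Htra3 encodes a secreted serine protease of the HtrA family, first described as a pregnancy-related protease and known from the decidualising uterine stroma and the placenta. Acox3 encodes a peroxisomal acyl-CoA oxidase, which carries out the first step in the breakdown of branched-chain fatty acids.

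The genes were placed only as finely as the rule that defined the region, at about 35.93 to 35.96 Mb for Acox3 and about 35.99 to 36.02 Mb for Htra3, each bound rounded to 10 kb. In the RefSeq gene table of build GRCm38.p6 the pair are direct neighbours and face each other. Acox3 lies on the plus strand and Htra3 on the minus strand, so their ends point inwards and their starts outwards. Beyond Acox3 that table lists the long noncoding RNA 4931431C16Rik, then Trmt44 and the pseudogene Plk-ps1, and beyond Htra3 it lists Sh3tc1 and Gm31888. Whether a peak lies in an exon, an intron or a promoter was not analysed here, because no mm9 annotation was used.

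The sequence under the peaks was not read, for want of an mm9 genome, so the promoters of the gene pair that names the locus are shown instead. They are the 250 bases before each RefSeq start in build GRCm38.p6, whose coordinates cannot be set against the mm9 peaks: chr5:35679781-35680030 on the minus strand for Htra3 and chr5:35582784-35583033 on the plus strand for Acox3. Each is written as the RefSeq promoter table gives it, taken to be 5′ to 3′ in the direction of its gene, with capitals at matches to the motifs searched.
Htra3: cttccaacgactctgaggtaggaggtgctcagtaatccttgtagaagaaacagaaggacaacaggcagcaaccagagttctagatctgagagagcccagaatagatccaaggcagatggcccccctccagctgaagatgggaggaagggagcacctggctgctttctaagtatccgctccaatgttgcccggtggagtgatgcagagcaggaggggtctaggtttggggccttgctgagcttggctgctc
Acox3: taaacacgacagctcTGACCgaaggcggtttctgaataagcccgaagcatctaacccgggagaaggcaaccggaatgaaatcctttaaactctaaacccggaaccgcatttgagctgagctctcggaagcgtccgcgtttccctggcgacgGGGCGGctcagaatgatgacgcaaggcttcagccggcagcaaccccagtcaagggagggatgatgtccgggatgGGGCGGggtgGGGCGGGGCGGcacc
Both strands were searched for a full estrogen response element (the arm GGTCA, a spacer of 3 bases and the arm TGACC), for a single arm GGTCA, for the GC box GGGCGG bound by Sp1 and for the AP-1 site TGANTCA. A single arm is part of a full element, and neighbouring GC boxes may share letters. The Htra3 window held no match to any of them. In the Acox3 window 1 single arm lay 231 to 235 bases before the start and 4 GC boxes lay between 5 and 99 bases before it, of which the pair nearest the start shared 1 base. Of 32851 promoters of the same length in the table, 0.0639% held a full element, 35.2% a single arm, 32.7% a GC box and 6.75% an AP-1 site. The G and C content was 54.8% for Htra3 and 60% for Acox3, against a median of 52.4% over all promoters. These are matches of letters only.

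After vehicle, ERα peaks at the locus were confined to a stretch of 23.3 kb from 35967270 to 35990525, and 5 of the 6 had their midpoint between the approximate bounds of the 2 genes. The first vehicle peak, chr5:35967270-35967757, was 488 bp long and the second, chr5:35971343-35971728, 386 bp. The third, chr5:35975523-35975707, was the shortest of them at 185 bp, and the fourth, chr5:35977255-35977633, measured 379 bp. After a gap of 10.4 kb came the last pair, chr5:35987992-35988259 with 268 bp and chr5:35990254-35990525 with 272 bp. The last of these lies just past the rounded lower bound of Htra3, where that gene ends, and whether it lies inside the gene cannot be told at this rounding. The vehicle peaks formed 1 cluster, meaning at least 5 peaks with gaps under 12500 bp, and it was 1 of 13 in the vehicle list. Of these 13, 7 held 6 or more peaks, this one included, and the largest held 8. With gaps under 5 kb the 6 vehicle peaks of the locus formed 0 clusters, because of the gap of 10.4 kb. The word cluster below therefore stands for these 6 peaks at the wider gap. No vehicle peak lay inside the rounded bounds of Acox3.

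The vehicle cluster stood alone on this part of the chromosome. The nearest vehicle peak at lower coordinates, chr5:33588450-33588741, lay 2379 kb before its first peak, and the nearest at higher coordinates, chr5:37291697-37291981, lay 1301 kb after its last. Of all gaps between neighbouring vehicle peaks on a chromosome, 95.8% were shorter than the former and 91.0% shorter than the latter. Inside the cluster the gaps ran from 1.55 to 10.4 kb with a median of 3.58 kb, against a median of 129 kb over the vehicle list. The 6 peaks at the locus were thus all that the vehicle list held over 3703 kb.

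After estradiol, each of the 6 vehicle sites had a peak again, and further peaks lay between these sites and on both sides of them. All 6 vehicle peaks overlapped an estradiol peak by at least 1 bp (100%, 95% exact binomial interval 54.1 to 100), while in the whole vehicle list 71.3% did. Of the 23 estradiol peaks, 6 overlapped a vehicle peak (26.1%, 10.2 to 48.4), while in the whole estradiol list 21.2% did. With the estradiol list reduced to its longest peaks, as many as the vehicle list holds, 15 members remained and the same 6 were shared (40%). The share over the reduced list was not computed, so this 40% has no background and cannot be set against 21.2%. Both intervals take each peak as independent and reflect counting alone, and the list-wide share falls inside each. The remaining 17 estradiol peaks had no vehicle peak. Estradiol peaks spanned 109 kb and covered 8612 bp, against 23.3 kb and 1978 bp for vehicle peaks. The ratio of peak numbers was 3.83 at the locus and 3.33 over the lists, and the ratio of covered length was 4.35 and 3.93. The number of reads behind either library is unknown, so a difference in depth and a difference in binding cannot be told apart.

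**Figure D1:**
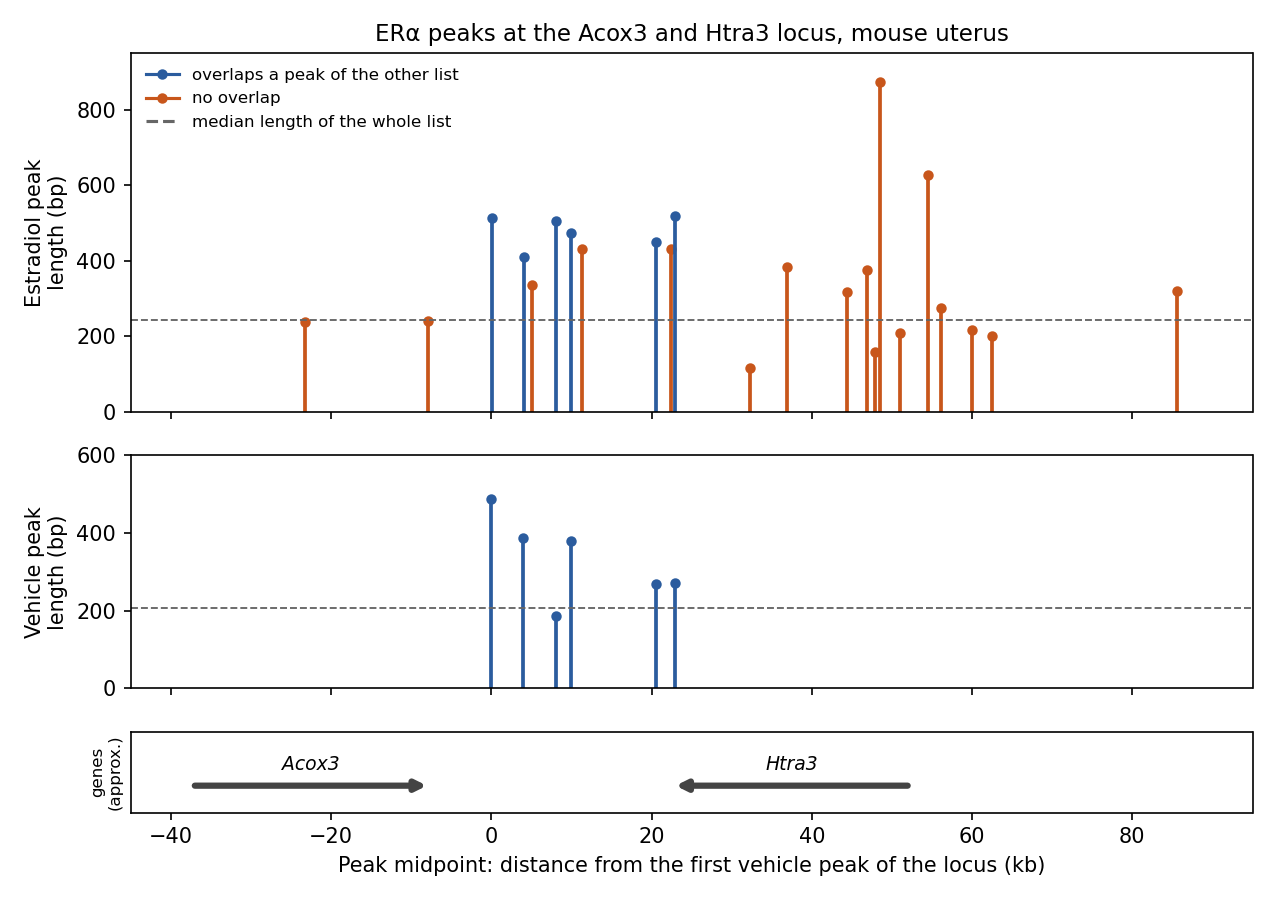
ERα peaks of the locus by midpoint, as distance in kb from the midpoint of the first vehicle peak (x axis), with peak length in bp (y axis). The upper panel shows the 23 estradiol peaks and the middle panel the 6 vehicle peaks, blue where a peak of the other list overlaps and orange where none does, the dashed lines are the list medians of 242 and 207 bp, and the arrows below give the direction and the approximate bounds of the genes, rounded to 10 kb; the vehicle peaks fill 23.3 kb, and 12 orange estradiol peaks lie to their right.

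Counted against the vehicle cluster, which needs no gene bounds, the estradiol list had 2 peaks below the vehicle cluster, 9 within its span and 12 above it. Of the 9 within the span, 6 were the shared sites and 3 had no vehicle peak. None of the 2 below or the 12 above met a vehicle peak. With the gene bounds as given, 2 estradiol peaks had their midpoint over Acox3, 8 between the genes, 8 over Htra3 and 5 beyond it, and none lay before Acox3. Moving these bounds by 5 or 10 kb changes the count over Htra3 to between 4 and 14, so the counts by gene are only as good as the bounds.

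At the shared sites the estradiol peak was the longer one in 6 of 6 (exact binomial interval 54.1 to 100). Over all 3584 sites at which 1 vehicle peak met 1 estradiol peak it was longer in 74.8%, a share inside that interval. At the first site the length was 488 bp after vehicle and 512 bp after estradiol, a ratio of 1.05. At the second it was 386 and 410 bp, a ratio of 1.06. This first pair of sites thus had nearly equal lengths in both libraries. The third site had the shortest vehicle peak and the largest ratio, 2.74, with 185 bp after vehicle and 506 bp after estradiol. The fourth site measured 379 and 473 bp (1.25), also below the median ratio. At the fifth site the lengths were 268 and 449 bp (1.68). At the sixth, near the end of Htra3, they were 272 and 517 bp (1.90). The vehicle lengths spread from 185 to 488 bp, whereas the estradiol lengths lay closer together, between 410 and 517 bp, and the groups overlap because the first vehicle peak exceeds 3 of the estradiol peaks. The median ratio was 1.46 at the locus (range 1.05 to 2.74) and 1.29 over all one-to-one sites, which lies inside that range.

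The edges of the paired peaks were compared next. At all 6 shared sites the estradiol peak ended beyond the vehicle peak at the higher coordinate, by 55 to 224 bp (exact binomial interval of the share 54.1 to 100), and over all one-to-one sites 73.0% did. It also started before the vehicle peak in 4 of 6 (22.3 to 95.7), by 12 to 193 bp, against 74.4% over all such sites, so both intervals hold the share of the lists. The third site reached further at the lower coordinate, by 193 against 128 bp, and the fifth about equally, by 90 and 91 bp. At the first and second site it started 36 and 31 bp after the vehicle peak instead. Midpoints of paired peaks lay between 0.5 bp apart at the fifth site and 101.5 bp apart at the sixth, with a median of 39 bp against 17 bp over all one-to-one sites. Without a summit or a signal track, an edge is only where the authors' peak calling placed it.

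**Figure D2:**
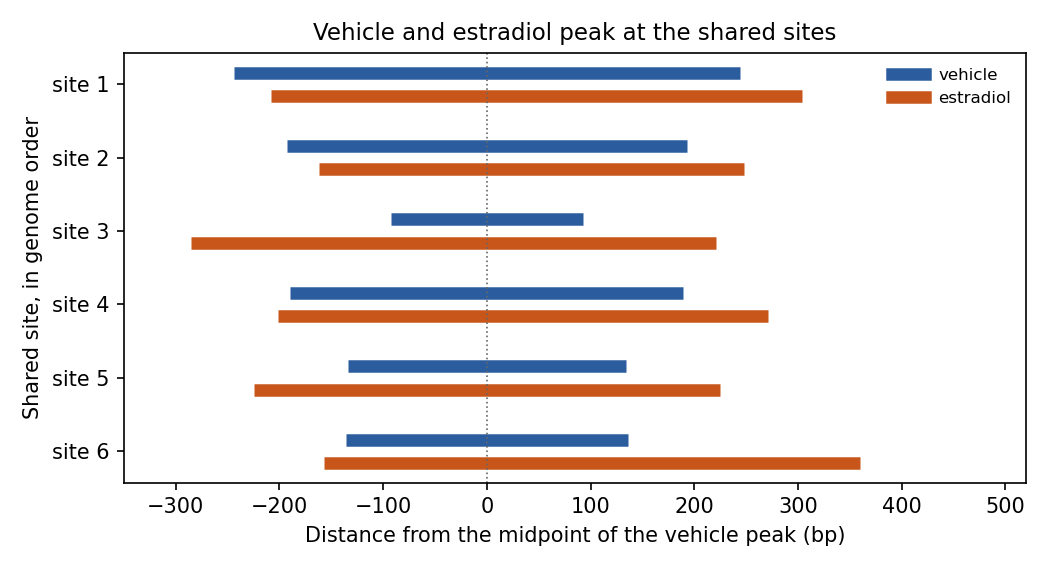
The 6 shared sites in genome order from top to bottom, each drawn as the vehicle peak (blue) and the estradiol peak (orange) against the distance in bp from the midpoint of the vehicle peak. Every orange bar reaches further right than its blue bar, by 55 to 224 bp, and the third site has the largest length ratio, 2.74.

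Within the span of the vehicle cluster, 3 estradiol peaks had no vehicle partner and each lay less than 1 kb from a vehicle peak. The peak chr5:35972383-35972718, 336 bp long, lay 0.654 kb from the second vehicle peak. The peak chr5:35978624-35979053 of 430 bp lay 0.99 kb from the fourth. The peak chr5:35989689-35990120 of 432 bp lay 0.133 kb from the sixth and only 0.112 kb from the next estradiol peak. It counts as a shared site where gaps of up to 500 bp are allowed, which gives 7 such peaks of 23. The share of the whole estradiol list at that setting was not computed. Of the estradiol list, 79.2%, 90.9% and 91.0% of peaks were shorter than these 3 in that order.

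Over and beyond Htra3, 12 estradiol peaks followed with no vehicle peak, and the longest peak of the locus was among them. This was chr5:36015640-36016511 with 872 bp, longer than 99.5% of the estradiol list and ranked 24 by length among the 13577 estradiol peaks without a vehicle overlap. Its nearest vehicle peak lay 25.1 kb away. A short peak of 159 bp, chr5:36015343-36015501, ended 0.138 kb before it. The second longest, chr5:36021684-36022311 with 628 bp, ranked 173 among the estradiol peaks without a vehicle overlap and lay 31.2 kb from a vehicle peak. It is close to the rounded upper bound of Htra3 at 36.02 Mb, the side on which that gene starts, but so is the 208 bp peak chr5:36018405-36018612, and the rounding does not let either be assigned to the start. The peaks of 382 bp (chr5:36004266-36004647), 318 bp (chr5:36011782-36012099) and 376 bp (chr5:36014271-36014646) lay inside the rounded bounds of Htra3, as did the shortest peak of the locus, chr5:35999710-35999826 with 117 bp.

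Further out the estradiol peaks were closer to the list in length. At higher coordinates came peaks of 274 bp (chr5:36023500-36023773), 217 bp (chr5:36027398-36027614) and 201 bp (chr5:36029882-36030082), then a gap of 22.9 kb and a last peak of 319 bp, chr5:36052978-36053296, 62.5 kb from the nearest vehicle peak. On the Acox3 side there were only 2 peaks, chr5:35944144-35944380 with 237 bp and chr5:35959535-35959773 with 239 bp, both just under the list median of 242 bp. The former lay 14.1 kb above the rounded lower bound of Acox3, where that gene starts, and the latter next to its rounded upper bound, where it ends. No peak of either list lay between the lower edge of the region and this first peak, a stretch of 94.1 kb. The edges of the region did not decide the membership of any nearby peak. The nearest estradiol peaks outside it, chr5:35624872-35625014 and chr5:36258504-36258744, lay 225 and 139 kb beyond its lower and upper edge.

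The members were set against their lists by length. The median vehicle member measured 325.5 bp (185 to 488), the median of the vehicle list being 207 bp, and 5 of 6, or 83.3% (exact binomial interval 35.9 to 99.6), were above that list median (50.0% of the list). The median estradiol member measured 376 bp (117 to 872), the median of the estradiol list being 242 bp, and 16 of 23, or 69.6% (exact binomial interval 47.1 to 86.8), were above the list median (49.8% of the list). Both intervals hold the share of the list, and 7 estradiol members were shorter than the list median. For the 6 shared ones the median was 489.5 bp, against 306 bp for all estradiol peaks with such an overlap. For the 17 others it was 318 bp (117 to 872), against 227 bp for all estradiol peaks without. Lengths with and without an overlap were not separate at the locus, since the longest members had none. How far length follows the strength of binding was not tested.

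**Figure D3:**
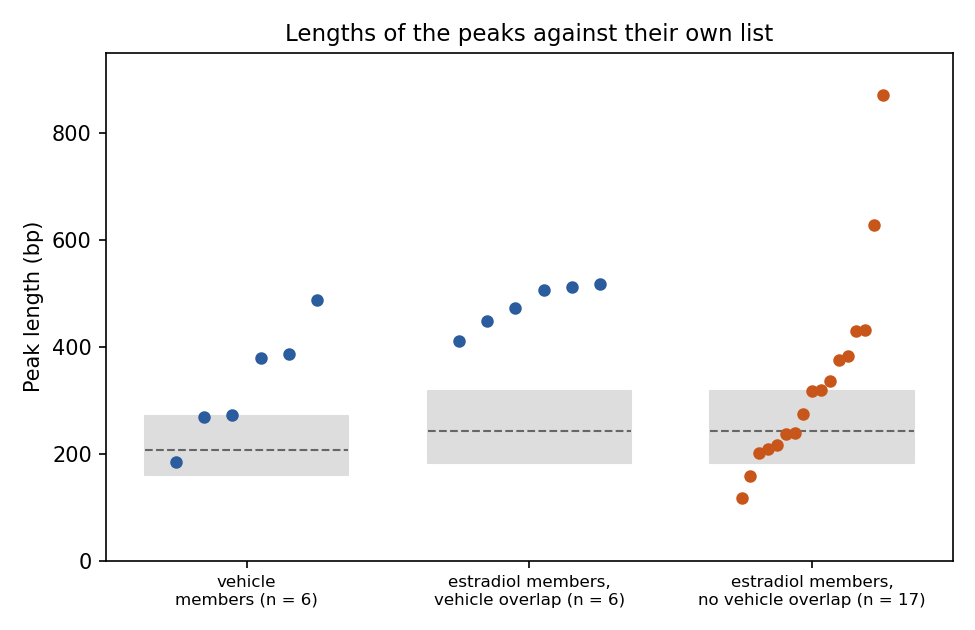
Length in bp of each peak at the locus, in order of length within 3 groups: the 6 vehicle peaks, the 6 estradiol peaks with a vehicle overlap and the 17 without. Grey bands are the quartiles and dashed lines the median of the whole list (207 bp for vehicle, 242 bp for estradiol). All 6 overlapping estradiol peaks lie above the band of the whole estradiol list. That band is not of overlapping peaks alone, whose median over the list is 306 bp. The 17 others run from 117 to 872 bp.

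The number in each deposited peak name was also read. The lowest 5480 of the 17240 estradiol numbers, 31.8% of the list, run once through the chromosomes in order of position. One of these was carried by 15 of the 23 members (65.2%, exact binomial interval 42.7 to 83.6). This interval also takes each peak as independent and reflects counting alone, and the difference from the list was not tested. These 15 were the 6 shared sites and 9 of the 17 others, and the same split over the list was not computed. Members inside this block were 318 to 872 bp long and the 8 outside it 117 to 274 bp. Over the list the median length was 354 bp inside the block and 203 bp outside it. The number thus goes with length in the list as well. The share of members in the block is therefore not separate from their length. In the vehicle list such a block held the lowest 384 of 5184 numbers. The 6 vehicle members, numbered 522 to 3478, all lay outside it. The sources used here do not say what the number stands for.

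The estradiol peaks were packed closely, with a median gap of 2.44 kb (0.112 to 22.9) against 27.3 kb over the list. Of the 23, 21 formed 1 cluster with gaps under 12500 bp, from 35959535 to 36030082, and only 2 others of the 363 estradiol clusters held as many or more. It also held all 6 vehicle peaks, and none of the 363 held more than 6, a number that 8 of them reached. With gaps under 5 kb, 15 of its estradiol and 4 of its vehicle peaks formed 2 clusters, and the other 6 estradiol and 2 vehicle peaks were in neither. The one from 35967306 to 35979053, between the genes, had 6 estradiol and 4 vehicle peaks in 11.7 kb. The one from 36011782 to 36030082, at the starting side of Htra3, had 9 estradiol peaks and 0 vehicle peaks in 18.3 kb. Of the 17 estradiol peaks without a vehicle overlap, 5 lay within 10 kb of a vehicle peak (29.4%, 10.3 to 56), where 18.4% of all such peaks did, and their median distance was 23.7 kb against 61.3 kb over the list. These distances follow in part from the choice of a region dense in peaks.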

How the data were processed

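Only the ERα peak lists after vehicle and after estradiol were used. The RNA polymerase II and input samples were not analysed here. Per the file headers the authors deposited each list on build mm9 as chromosome, start, end and name, with no score or read count, so the depth is unknown. The submitters' processing notes name Partek, while the peak caller and its settings were not given in the sources used here. Starts are printed counted from 1, reading the deposited starts as counted from 0. Peaks overlapping the region were taken with Python 3.11.15 and numpy 2.4.6, an overlap being at least 1 bp, and a peak was assigned to a gene by its midpoint. Intervals of shares are 95% exact binomial (Clopper-Pearson) from scipy 1.17.1. Intervals of medians run between ordered values chosen by the binomial distribution to cover at least 95%. With 1 library per condition no test between conditions was made. The overlap and cluster counters were tested on simulated data and recovered all 200 planted shared sites of 2000 and all 30 planted clusters. Both members, Htra3 and Acox3, matched the RefSeq promoter table (GRCm38.p6). Its sequences were taken to read in the direction of the gene. TATAAA occurred within bases 211 to 230 in 613 promoters and within bases 61 to 80 in 167. These counts were not split by strand, so they do not check minus-strand genes such as Htra3 on their own. The genes named are the members and up to 3 neighbours on each side, of which 1 is not reported here. The region and its genes were chosen with earlier results of these data known. Alternatives were other overlap definitions, joined peaks, longer peaks only, moved region edges, moved gene bounds and other cluster gaps.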

Additional observations from a re-analysis of the deposited data

How the results depend on the processing

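Of 44 values recomputed under alternative settings, 32 stayed within their interval or within 1.5 times the count, 12 moved and 0 reversed. All moves concerned gene bounds and cluster gaps. With the bounds moved out by 10 kb, vehicle peaks numbered 1 over Acox3, 3 between the genes and 2 over Htra3, and estradiol peaks 5 between the genes, 14 over Htra3 and 1 beyond it. With the bounds moved in by 5 kb, vehicle peaks over Htra3 numbered 0, and estradiol peaks numbered 1 over Acox3, 4 over Htra3 and 8 beyond it. With gaps under 5 kb there were 0 vehicle and 2 estradiol clusters. Counts in the region were 6 and 21 after joining peaks less than 500 bp apart, and 5 and 16 in the longer part of each list. A reciprocal overlap of 50% left 5 of 6 vehicle peaks shared, since at the third site the estradiol peak is 2.74 times as long. Motif searches under the peaks were not run, for want of an mm9 genome. No paired analysis was possible because each condition is 1 library, and no replicate could be left out.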
